A study of Mus musculus with 24 samples.

Results

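The 33 genes described here encode the machinery by which a liver makes, takes up, stores and exports cholesterol: the SREBP2 sensing system, the enzymes from acetyl-CoA to cholesterol, and proteins for uptake, esterification and efflux. They were taken by gene symbol from a list of these functions, and all 33 were found among the 56205 gene rows of the table and among the 14109 genes tested. Poly(A) RNA was sequenced from whole livers of 24 C57BL/6J mice. Of these, 12 received a control diet and 12 a methionine-choline deficient (MCD) diet, each for 20 weeks, and the labels name no transgene or knockout. An MCD diet withholds nutrients the liver needs to make phosphatidylcholine and is used to produce fatty liver with inflammation and fibrosis in mice. The study's methods describe this feed as rich in fat, and the sources used here do not give the animals' age at the start. Both sexes were used in equal numbers on each diet, but no label gives the sex, litter or batch of a library, so the libraries of a diet formed 1 group. Nothing beyond the study's animal numbers states that each library is a separate mouse, and the p-values measure the spread between these libraries.

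Cholesterol is built in the endoplasmic reticulum from acetyl-CoA through mevalonate, farnesyl pyrophosphate, squalene and lanosterol. When membrane sterol is scarce, Scap carries the precursor of the transcription factor SREBP2 (encoded by Srebf2) to the Golgi for cleavage, and the released factor switches on the synthesis genes. When sterol is plentiful, the Insig proteins hold Scap back. Oxidised sterols also activate the nuclear receptor LXR, which raises efflux transporters. The liver adds functions of its own, among them secretion of cholesterol into bile through Abcg5 and Abcg8.

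Total counts ran from 16388650 to 24915175 per library, and the diets overlapped. The scaling factors that correct for differences in RNA composition (TMM) did not overlap, at 0.642 to 0.973 in control and 1.07 to 1.26 in MCD livers, and control library 12 had the lowest. Levels are given as CPM, read counts relative to the scaled library size, and a gene was called when its edgeR quasi-likelihood FDR (Benjamini-Hochberg over all tested genes) was 0.01 or less and its absolute log2 fold change exceeded 0.5. Of all tested genes, 19.2% were called higher and 19.1% lower in MCD livers. With total counts alone in place of TMM the split of calls was 4539 higher to 848 lower instead of 2712 to 2688, and the median of all genes moved by 0.37 on the log2 scale, so every direction below is relative to the scaling. The hepatocyte markers, led by Alb, were abundant in every library. Their summed level was 70500 to 156000 CPM in control and 47800 to 73500 CPM in MCD livers, and 3 of the 8 were called lower.

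Most of the cholesterol genes were called lower in MCD livers with TMM scaling. Of the 33, 24 were called lower (72.7%, against 19.1% of all tested genes), 2 were called higher (6.06%, against 19.2%) and 7 were not called. With total counts alone 14 were called lower (against 6.01% of all tested genes) and 3 higher (against 32.2%). With an FDR of 0.05 and any fold 25 were lower (against 37.0%) and 2 higher (against 26.5%), and with a log2 limit of 1 there were 12 lower (against 4.86%) and 1 higher (against 13.2%). The median log2 fold change of the 33 was -0.85, against -0.10 for all tested genes. The genes called higher were Soat1, which esterifies cholesterol for storage, and Abcg1, which exports cholesterol. With TMM scaling, the genes called lower were 3 of the 4 SREBP2 system genes, 15 of the 19 synthesis enzymes, 1 of the 3 uptake and transport genes, 2 of the 3 esterification genes and 3 of the 4 efflux genes. With total counts alone they were 2 of 4, 10 of 19, 1 of 3, 0 of 3 and 1 of 4. Exons of Scap, Hmgcs1, Idi1, Ggps1, Fdft1, Lss and Cyp51 also overlap a gene on the opposite strand (for Fdft1 it is Ctsb, a lysosomal protease), and without strand such reads cannot be told apart. In bulk tissue, fewer cells of a type and less RNA per cell cannot be told apart. Markers of other cell types moved with diet as well. All 8 macrophage markers were called higher, with a summed level of 137 to 383 CPM in control and 1620 to 3670 CPM in MCD livers. The sums for 7 mesenchymal markers, all called higher, were 152 to 518 and 761 to 1370 CPM, and those for 4 cholangiocyte markers, all called higher, were 3.71 to 14.8 and 40.0 to 95.6 CPM. Kupffer cell and endothelial markers were each called lower in 3 of 4. The part of cell makeup in the changes below was not tested.

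**Figure D1:**
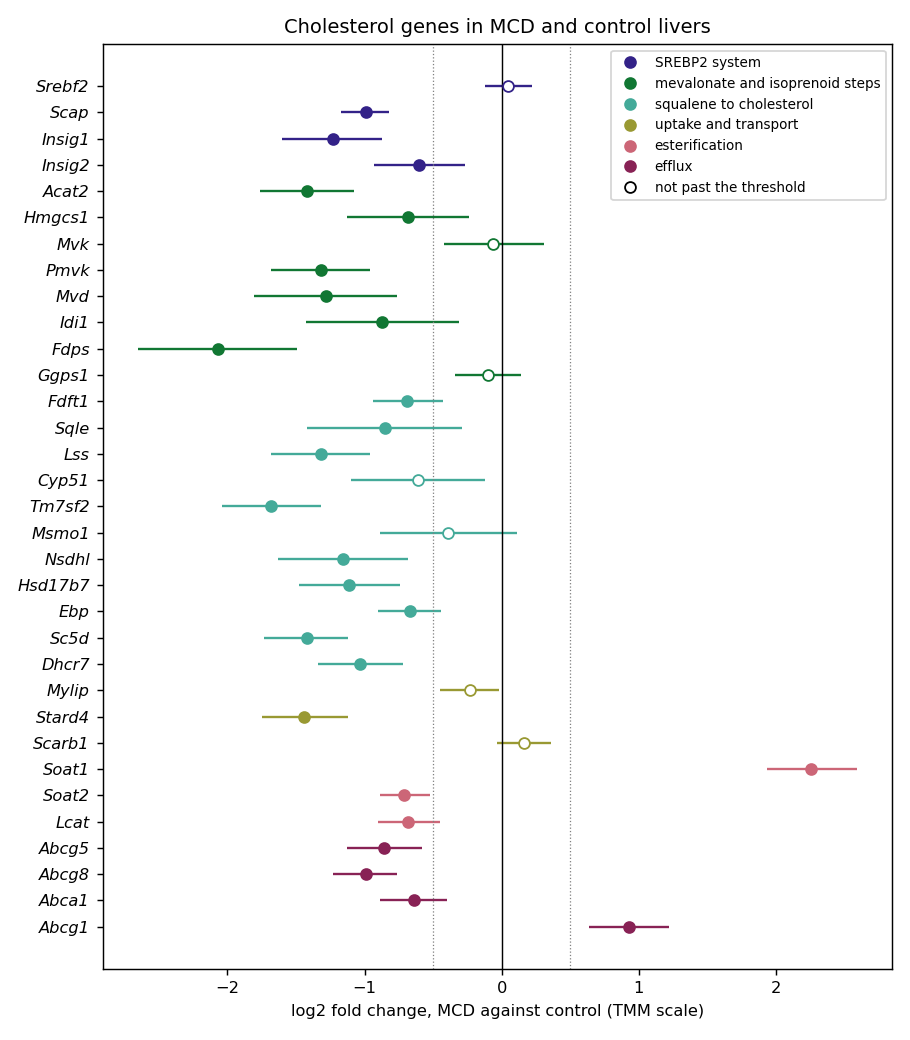
Log2 fold change of the 33 cholesterol genes, MCD against control livers (x axis), from the edgeR fit on 12 libraries per diet, with 95% confidence intervals as bars. Genes are grouped by role in colour, open circles were not called, and dotted lines mark the log2 limit of 0.5. All but Soat1 and Abcg1 among the filled circles lie to the left of zero.

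The genes that separated the diets library by library were few. In Soat1 every MCD library lay above every control library, which held for 9.50% of all tested genes. In Scap, Tm7sf2 and Soat2 every MCD library lay below every control library, which held for 4.88% of all tested genes. In the other 29 genes the ranges overlapped, although only 1 MCD library crossed into the control range in Acat2, Lss, Abcg8 and Abcg1. The separation depended on the scaling. With total counts alone, an alternative added after the values were seen, the ranges of Scap, Tm7sf2 and Soat2 overlapped and 0 of the 33 genes lay wholly below (against 0.688% of all tested genes), while Soat1 and Abcg1 lay wholly above (2 of the 33, against 17.5%).

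In the SREBP2 system, the mRNA of the factor itself was not called while those of its escort and its retention factors fell. Srebf2 stood at 54.4 CPM in the lowest, 78.1 in the median and 105 in the highest control library, and at 70.6, 81.4 and 85.4 CPM in MCD livers. The MCD range lay inside the control range, and the log2 fold change was 0.05 with a 95% interval of -0.12 to 0.22 (edgeR FDR 0.587). With total counts alone the log2 fold change of Srebf2 was 0.40, which was not called. Scap, the escort, stood at 164, 229 and 298 CPM (lowest, median, highest) in control and 98.8, 115 and 133 CPM in MCD livers. All MCD libraries were thus below all control libraries, and the means were 233 ± 38.5 and 117 ± 11 CPM (SD, n = 12 each). The log2 fold change of Scap was -0.99 (SE 0.09, FDR 2.28e-10).

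Insig1, the retention factor whose own gene is an SREBP target, stood at 101, 212 and 384 CPM in control and 68.6, 91.0 and 117 CPM in MCD livers. The ranges overlapped in 3 of the 12 MCD libraries. Its log2 fold change was -1.23 (SE 0.18, FDR 1.16e-06). Insig2, its paralogue with the same retention function, stood at 61.4, 126 and 155 CPM in control and 46.0, 73.2 and 91.0 CPM in MCD livers. The log2 fold change of Insig2 was -0.60 (SE 0.16, FDR 0.00217), and it was no longer called without control library 1 (-0.50), with upper-quartile factors (-0.45) or with total counts alone (-0.25). Within a library, log2 Insig2 minus log2 Insig1, which does not depend on the scaling, averaged -0.95 ± 0.72 in control and -0.37 ± 0.54 on the MCD diet (SD, n = 12 each). The shift of 0.58, a 1.5-fold change of the ratio towards Insig2, had an unadjusted p of 0.0354 (two-sided permutation test). Adjusted over the 4 ratios compared, that p was 0.0471, but 2 of them pair genes called in opposite directions, and over the other 2 it was 0.0707, which did not pass 0.05. The values overlapped widely, 11 of 12 MCD libraries were above the control median, and leaving out any 1 of 10 libraries gave an unadjusted p of 0.0502 to 0.0687 by the same permutation test. These were control libraries 2, 3, 5, 6 and 7 and MCD libraries 1, 7, 9, 10 and 11, without which the shift was 0.48 to 0.57.

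**Figure D2:**
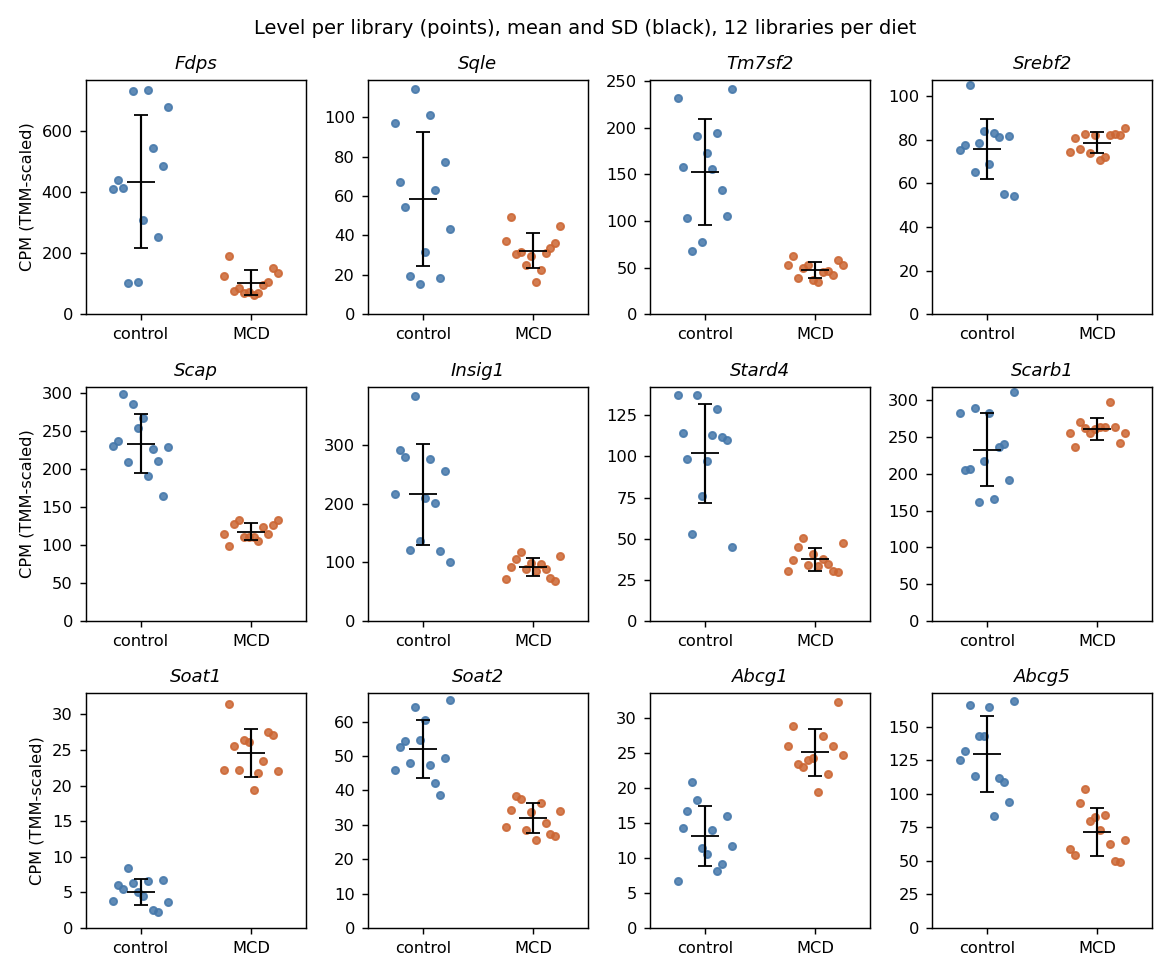
Level of 12 of the genes in each library, in TMM-scaled CPM (y axis, from 0), for 12 control (blue) and 12 MCD (orange) livers, with the mean and SD in black. The control points of Fdps and Sqle are spread from 101 to 733 and from 15.4 to 114 CPM and reach the MCD points, while those of Scap, Tm7sf2, Soat1 and Soat2 do not meet them.

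The mevalonate and isoprenoid steps, from acetyl-CoA to farnesyl and geranylgeranyl pyrophosphate, had 6 of 8 genes called lower. The largest fall among the 33 genes was that of Fdps, which makes farnesyl pyrophosphate. It stood at 101, 425 and 733 CPM in control and 61.5, 90.0 and 192 CPM in MCD livers. Control libraries 4 and 6 lay within the MCD range, and 7 of 12 MCD libraries were under the control range. The mean was 433 ± 217 CPM in control and 103 ± 40.2 CPM on the MCD diet (SD, n = 12 each), a log2 fold change of -2.07 (SE 0.28, FDR 5.44e-07) or 4.2-fold lower. Fdps shares exon sequence with Gm43738 on the same strand, and reads there could belong to either gene.

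Acat2, the cytosolic thiolase that opens the pathway, had means of 68.9 ± 25.5 and 25.7 ± 2.38 CPM and a log2 fold change of -1.42 (FDR 3.98e-08), and only 1 MCD library reached the control range. Acat2 has a near-identical neighbour, Acat3, and how reads shared by them were assigned is not given in the sources used here, so its value is uncertain. The kinase and decarboxylase that follow mevalonate kinase fell alike. Pmvk had means of 40.4 ± 16 and 16.2 ± 2.56 CPM (log2 fold change -1.32, FDR 3.86e-07), and Mvd had means of 24.8 ± 13.1 and 10.2 ± 2.52 CPM (log2 fold change -1.28, FDR 9.94e-05).

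Hmgcs1, the synthase that commits acetyl units to HMG-CoA, had means of 144 ± 73.7 and 89.8 ± 21.1 CPM, with overlapping ranges of 64.5 to 272 and 68.1 to 136 CPM. Idi1, which isomerises isopentenyl pyrophosphate and has a close paralogue in Idi2, had means of 67.4 ± 36.6 and 36.8 ± 11.1 CPM. Both calls lay just inside the limit: the log2 fold change was -0.68 (FDR 0.00811) for Hmgcs1 and -0.87 (FDR 0.00703) for Idi1. Leaving out 1 library ended the call in 18 of 24 cases for Hmgcs1 (log2 fold change -0.75 to -0.57 over all cases) and in 15 of 24 for Idi1 (-0.98 to -0.74). Each call was also lost under 8 of the 11 other settings, with values down to -0.36 for Hmgcs1 and -0.52 for Idi1 with total counts alone.

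Mvk and Ggps1 were not called. Mvk, mevalonate kinase, sits between Hmgcs1 and Pmvk in the pathway, yet stood at 10.8, 23.5 and 49.8 CPM in control and 17.3, 22.7 and 30.5 CPM in MCD livers. Its log2 fold change was -0.06, with a 95% interval of -0.42 to 0.31 (FDR 0.788), and its sign turned under 5 of the other settings and without control library 12, where it was 0.12, or MCD library 5 or 7. Ggps1, which makes geranylgeranyl pyrophosphate for protein prenylation and so leaves the sterol branch, was low throughout at 4.73 ± 0.989 and 4.40 ± 0.730 CPM. The log2 fold change of Ggps1 was -0.10 (95% interval -0.34 to 0.14, FDR 0.455), and it was 0.05 with upper-quartile factors and 0.26 with total counts alone.

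Between squalene and cholesterol, 9 of 11 genes were called lower. Tm7sf2, a sterol C14 reductase, stood at 67.6, 157 and 241 CPM in control and 34.4, 48.1 and 62.4 CPM in MCD livers, with no overlap. Its log2 fold change was -1.68 (SE 0.18, FDR 7.05e-09), or 3.21-fold lower. Tm7sf2 overlaps exons of Vps51 on the same strand, so reads in the shared stretch could belong to either gene. Sc5d, the C5 desaturase, fell from 373 ± 110 to 139 ± 23.6 CPM (log2 fold change -1.42, FDR 5.57e-09), and 9 of 12 MCD libraries were under the whole control range. Lss, which cyclises squalene epoxide to lanosterol, fell from 44.7 ± 17.3 to 17.9 ± 3.28 CPM (log2 fold change -1.32, FDR 3.65e-07).

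Among the remaining enzymes, Nsdhl, Hsd17b7, Dhcr7, Ebp and Fdft1 were called lower. Nsdhl and Hsd17b7, which act with Msmo1 to remove the C4 methyl groups, had log2 fold changes of -1.16 (FDR 9.58e-05) and -1.11 (FDR 6.96e-06). Dhcr7, the C7 reductase, had one of -1.03 (FDR 1.43e-06). Ebp, the isomerase that shifts a ring double bond, and Fdft1, the synthase that makes squalene and is the first enzyme committed to sterols, had log2 fold changes of -0.67 (FDR 8.18e-06) and -0.69 (FDR 3.09e-05), and neither was called with total counts alone (-0.28 and -0.31). Ebp stood at 230 ± 58.4 CPM in control and 144 ± 11.3 CPM in MCD livers (SD, n = 12), and per kilobase of transcript its control level (132 CPM) was next below that of Fdps (147 CPM) among the 19 enzymes.

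Sqle, the squalene epoxidase that is a rate-limiting step, had a fall whose call depended on single libraries. It stood at 15.4, 58.6 and 114 CPM in control and 16.3, 31.4 and 49.3 CPM in MCD livers, so the lowest control library was below every MCD library. The log2 fold change was -0.85 (SE 0.28, FDR 0.00897), and the call was lost in 19 of 24 fits that left out 1 library, with values of -0.95 to -0.73, and under 8 of the 11 other settings, among them total counts alone (-0.50). Cyp51, the lanosterol demethylase, and Msmo1, the C4 oxidase, were not called. Cyp51 had means of 88.2 ± 43.4 and 57.8 ± 16.1 CPM (log2 fold change -0.61, FDR 0.0273), and it was called without control library 6 (-0.71, FDR 0.00469) and with a score of sex-linked expression as covariate (-0.61, FDR 0.00884). Msmo1 had means of 95.6 ± 47.7 and 73.0 ± 22.6 CPM (log2 fold change -0.39, 95% interval -0.89 to 0.11, FDR 0.169).

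**Figure D3:**
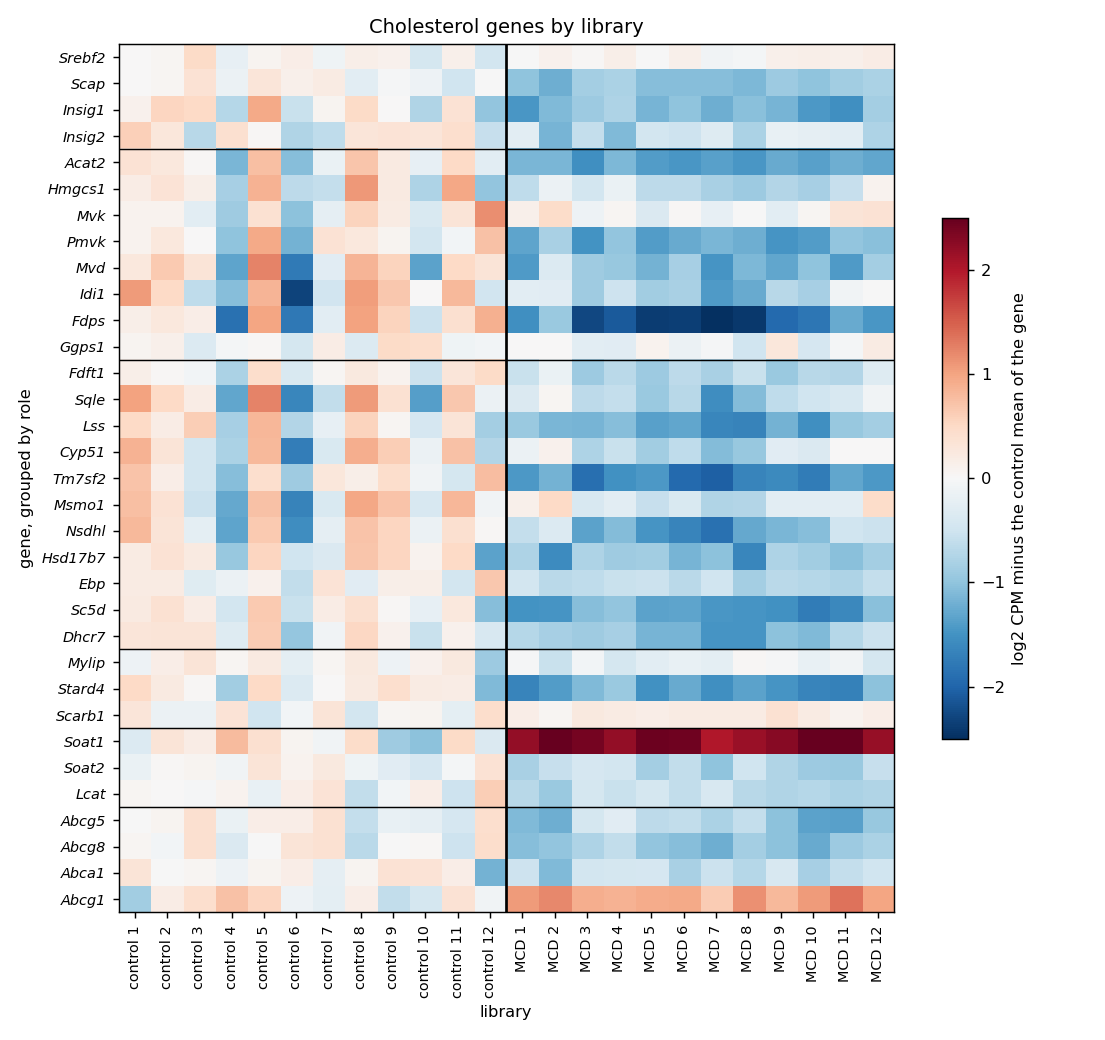
Log2 CPM of each gene in each library minus that gene's mean over the control libraries (colour; blue is lower, red higher), with genes in rows grouped by role and libraries in columns, control left of the black line and MCD right. Control libraries 4 and 6 are blue through the synthesis enzymes, and Soat1 and Abcg1 are red across the MCD libraries.

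Most of the 19 synthesis enzymes varied together from one control liver to the next. Their mean log2 difference from the control mean ran from -1.13 to 0.69 over the control libraries and from -1.22 to -0.52 over the MCD libraries. Control libraries 4 (-0.92) and 6 (-1.13) lay inside the MCD range, with all 19 enzymes below the control mean in each, and the other 10 control libraries lay above it, the lowest at -0.36. Among pairs of the 19 enzymes (171 pairs) the median Pearson r over libraries was 0.72 in control livers (-0.33 to 0.99, with 72.5% of pairs above 0.5) and 0.50 in MCD livers (-0.55 to 0.96, with 50.3% above 0.5). Ggps1 and Ebp followed the enzyme mean least in control livers (r = 0.20 and 0.26). These pairs share libraries and scaling, so the values are a description. Pairs of other genes were not examined, so the values do not show that these enzymes vary together more than other genes do. Without the pair of libraries whose enzyme mean lay farthest from the median, the median r was 0.45 in control livers (libraries 6 and 4 left out) and 0.32 in MCD livers (libraries 12 and 2 left out). Removing the libraries at the ends of the range lowers r by construction.

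Variation between libraries was smaller on the MCD diet. The coefficient of variation (CV) of the 19 enzymes had a median of 39.6% in control (20.9% to 58.2%) and 18.3% in MCD livers (7.85% to 39.1%), and it was lower in MCD livers for all 19. The same held for 32 of the 33 cholesterol genes, the exception being Abcg5 (21.9% and 24.6%), but also for 90.0% of all tested genes, whose median CV was 26.7% in control and 14.2% in MCD livers. A narrower MCD group was therefore general in these libraries.

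**Figure D4:**
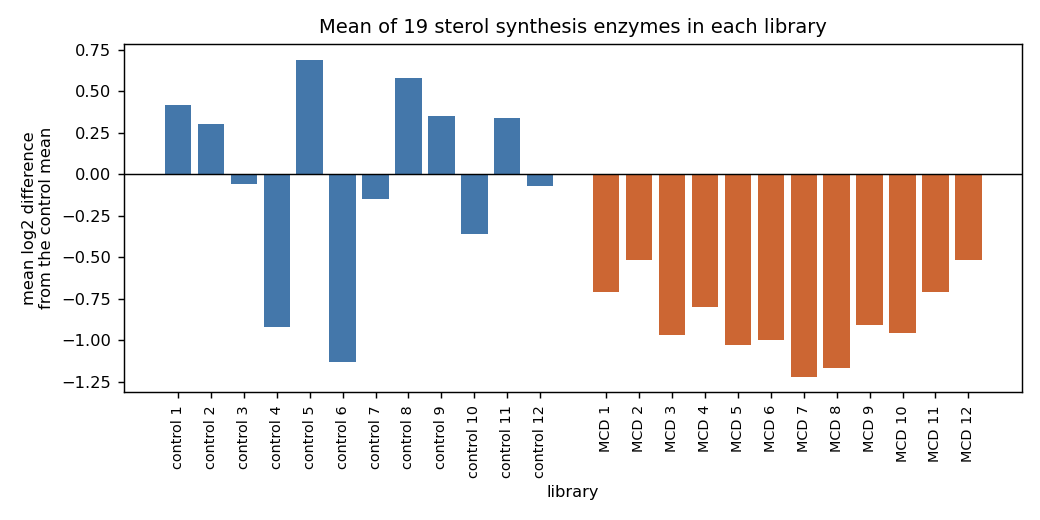
Mean over the 19 sterol synthesis enzymes of the log2 CPM difference from each enzyme's control mean (y axis), for every library (x axis), control in blue and MCD in orange. All 12 MCD bars lie between -1.22 and -0.52, and control libraries 4 and 6 reach the same depth.

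The promoters of the genes were read from the RefSeq table for GRCm38.p6, which gives 250 bases before and 50 bases after a transcription start, and 26 of the 33 genes matched an entry, with 33 windows among them. SREBP2 acts at sterol regulatory elements, commonly beside boxes for NF-Y and Sp1. The form TCACNCCAC, searched on both strands, was found for 1 of the 26 genes (3.85%), Hmgcs1, and for 1.44% of all 27025 genes in the table, counting a gene when any of its windows matched. Sterol elements with other letters, or outside these windows, are missed by this search. A gene without a match is therefore not shown to lack such an element. The NF-Y box CCAAT was found for 23 of the 26 (88.5%) and for 41.1% of all genes, or 42.4% of tested genes. The GC box GGGCGG was found for 21 of the 26 (80.8%), for 38.2% of all genes and for 66.6% of tested genes. No matches of different motifs shared a base in these windows (0 cases in 33 windows), a match is a run of letters rather than a shown site, and genes without a call carried them too. The promoters of 4 genes are printed 5′ to 3′ on the strand of the gene with the TCACNCCAC form and the CCAAT box (ATTGG when on the other strand) in capitals. They are Hmgcs1, the gene with the sterol element form (chr13:119690101-119690400, plus strand), and Tm7sf2, the synthesis enzyme with no overlap between diets under TMM scaling (chr19:6067801-6068100, minus strand). Also printed are Mvk, with 5 boxes and no call (chr5:114444019-114444318, plus strand), and Abcg5 (chr17:84682962-84683261, minus strand), whose window overlaps that of Abcg8 on the opposite strand (chr17:84682871-84683170).
Hmgcs1: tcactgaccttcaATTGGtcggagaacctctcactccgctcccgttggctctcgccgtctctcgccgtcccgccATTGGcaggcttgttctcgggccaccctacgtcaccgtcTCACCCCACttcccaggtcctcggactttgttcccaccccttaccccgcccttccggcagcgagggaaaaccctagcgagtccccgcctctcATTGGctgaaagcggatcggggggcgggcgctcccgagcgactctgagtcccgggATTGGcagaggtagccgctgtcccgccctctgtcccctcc
Tm7sf2: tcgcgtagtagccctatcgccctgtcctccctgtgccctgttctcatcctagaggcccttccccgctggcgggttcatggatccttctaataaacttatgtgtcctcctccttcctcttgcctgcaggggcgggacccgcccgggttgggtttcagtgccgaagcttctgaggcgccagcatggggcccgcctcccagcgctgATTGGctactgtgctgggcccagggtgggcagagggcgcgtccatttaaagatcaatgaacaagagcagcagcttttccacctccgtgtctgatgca
Mvk: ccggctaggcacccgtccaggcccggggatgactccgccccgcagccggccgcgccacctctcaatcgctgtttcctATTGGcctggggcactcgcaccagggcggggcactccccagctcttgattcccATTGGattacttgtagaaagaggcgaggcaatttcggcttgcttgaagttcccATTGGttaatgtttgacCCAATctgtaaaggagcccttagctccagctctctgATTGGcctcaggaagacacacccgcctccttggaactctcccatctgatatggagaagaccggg
Abcg5: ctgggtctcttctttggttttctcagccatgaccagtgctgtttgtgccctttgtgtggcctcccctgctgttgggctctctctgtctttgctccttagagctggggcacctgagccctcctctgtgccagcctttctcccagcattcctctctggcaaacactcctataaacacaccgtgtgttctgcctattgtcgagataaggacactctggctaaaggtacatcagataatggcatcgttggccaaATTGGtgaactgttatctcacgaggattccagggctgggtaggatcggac
The Hmgcs1 window holds 4 CCAAT boxes with the sterol element form, and those of Tm7sf2 and Abcg5 hold 1 box each. The log2 fold changes beside them were -0.68 for Hmgcs1, -1.68 for Tm7sf2, -0.06 for Mvk and -0.86 for Abcg5, and the 4 genes were chosen for printing, so no relation between boxes and changes is read from them.

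Uptake and intracellular transport were mixed. Stard4, a cytosolic sterol carrier and SREBP target, stood at 45.1, 111 and 137 CPM in control and 29.8, 35.8 and 50.5 CPM in MCD livers. Its log2 fold change was -1.44 (SE 0.15, FDR 8.85e-09), and 9 of 12 MCD libraries were under the control range. Scarb1, the receptor that takes cholesteryl ester from HDL, stood at 162, 227 and 311 CPM in control and 237, 261 and 298 CPM in MCD livers. All 12 MCD libraries lay above the control median, but the log2 fold change of Scarb1 was 0.16 (95% interval -0.03 to 0.36, FDR 0.137) and it was called higher with total counts alone (0.54). Mylip, a ubiquitin ligase induced by LXR that marks lipoprotein receptors for degradation, had means of 15.6 ± 3.04 and 13.3 ± 1.68 CPM. The log2 fold change of Mylip was -0.23 (95% interval -0.45 to -0.02, FDR 0.0523), and its sign turned with total counts alone (0.10).

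The enzymes that esterify cholesterol moved in opposite directions. Soat1, the acyltransferase of macrophages and most other cells, stood at 2.28, 5.24 and 8.37 CPM in control and 19.4, 24.5 and 31.5 CPM in MCD livers. Its lowest MCD library was above its highest control library, and the log2 fold change was 2.26 (SE 0.16, FDR 7.63e-12) or 4.80-fold higher. Soat2, the acyltransferase of hepatocytes and enterocytes, stood at 38.6, 51.0 and 66.2 CPM in control and 25.6, 32.1 and 38.3 CPM in MCD livers. Here the highest MCD library was just below the lowest control library, and the log2 fold change was -0.71 (SE 0.09, FDR 1.71e-07). With total counts alone the log2 fold change of Soat2 was -0.34 and not called. Within a library, as a description, since each gene was already called, log2 Soat1 minus log2 Soat2 averaged -3.40 ± 0.51 in control and -0.37 ± 0.27 on the MCD diet (SD, n = 12 each). The shift of 3.03 was an 8.17-fold change of the ratio, seen in 12 of 12 MCD libraries. Per kilobase of transcript, Soat2 remained the more abundant, at 14.4 CPM against 2.94 CPM for Soat1 in MCD livers and 23.6 against 0.609 CPM in control livers. The macrophage markers rose with Soat1, as given above, and their part in its rise was not tested.

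Lcat, the plasma enzyme secreted by hepatocytes that esterifies cholesterol on HDL, had means of 547 ± 126 and 342 ± 38.8 CPM. Its log2 fold change was -0.68 (SE 0.11, FDR 5.93e-06), or -0.29 and not called with total counts alone, and 8 of 12 MCD libraries were under the lowest control library. Lcat had the highest level per kilobase of all 33 genes on both diets, at 407 CPM in control and 255 CPM in MCD livers.

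The efflux transporters also split. Abcg5 and Abcg8, obligate partners that pump cholesterol into bile, fell together. Abcg5 stood at 83.6, 129 and 169 CPM in control and 49.1, 69.4 and 104 CPM in MCD livers, and Abcg8 at 93.5, 151 and 204 CPM and 62.4, 74.9 and 96.7 CPM. The ranges of both overlapped, but 9 and 11 of the 12 MCD libraries, respectively, were under the lowest control library. Their log2 fold changes were -0.86 (SE 0.13, FDR 3.75e-06) and -0.99 (SE 0.11, FDR 3.29e-08), and that of Abcg5 was -0.49 and not called with total counts alone. Both genes overlap each other's exons on opposite strands, and whether strand was used in counting is not given in the sources used here.

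Abca1, which loads cholesterol onto apolipoprotein A-I to form HDL, had means of 147 ± 32.6 and 94.2 ± 12.8 CPM, and its log2 fold change was -0.64 (SE 0.12, FDR 4.60e-05). The call of Abca1 was lost with upper-quartile factors (-0.49) and with total counts alone (-0.30). Its lowest level, 63.2 CPM, was in a control library. Abcg1, which exports cholesterol to formed HDL and is prominent in macrophages, stood at 6.75, 12.9 and 20.9 CPM in control and 19.5, 24.6 and 32.3 CPM in MCD livers. It was the exception among the transporters, with 11 of 12 MCD libraries above every control library and a log2 fold change of 0.93 (SE 0.14, FDR 2.69e-06). Within a library, as a description, since each gene was already called, log2 Abcg1 minus log2 Abcg5 averaged -3.33 ± 0.59 in control and -1.47 ± 0.48 on the MCD diet (SD, n = 12 each), a shift of 1.86 or 3.62-fold in 12 of 12 MCD libraries. As with Soat1, macrophage markers rose in the same libraries, and their part was not tested. Log2 Abca1 minus log2 Abcg8 shifted by 0.35, from -0.07 ± 0.64 to 0.29 ± 0.23, which did not pass (two-sided permutation test, p = 0.0738). It passed an unadjusted 0.05 without control library 8 (0.42), control library 11 (0.42) or MCD library 2 (0.39), and without control library 12 the shift was 0.21.

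**Figure D5:**
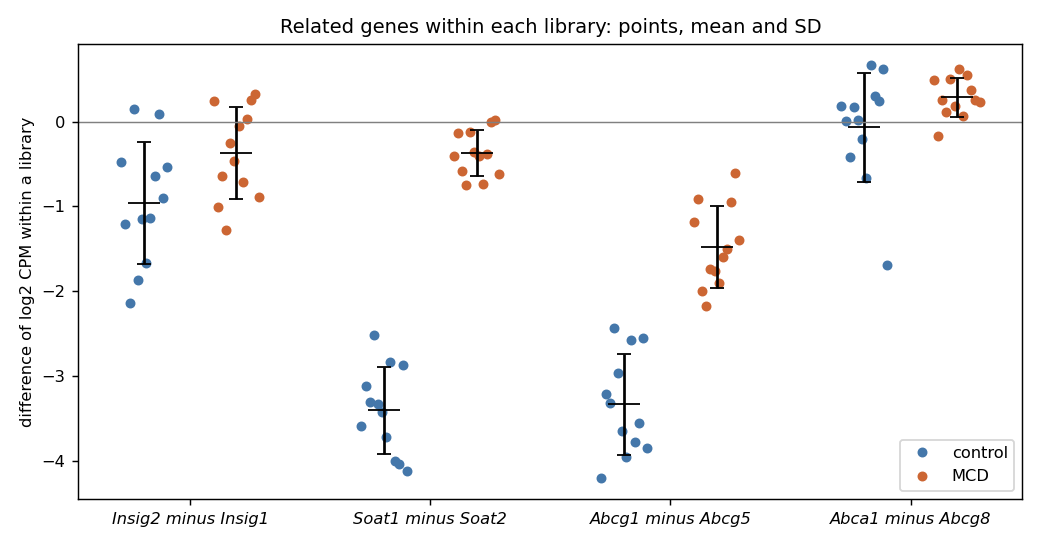
Difference of log2 CPM (y axis) between the members of 4 gene pairs within each library, for 12 control (blue) and 12 MCD (orange) livers, with mean and SD in black. For Soat1 minus Soat2 and Abcg1 minus Abcg5 every MCD point is above every control point, while the other pairs overlap.

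The wider sterol network was described through a second list. Of 37 related genes listed by function, 36 were in the table and tested, and 2 were called higher (5.56%, against 19.2% of all genes), 7 lower (19.4%, against 19.1%) and 27 neither, with a median log2 fold change of -0.27. With total counts alone the balance turned, to 6 higher (against 32.2% of all genes) and 4 lower (against 6.01%). With an FDR of 0.05 and any fold the counts were 5 higher (against 26.5% of all genes) and 22 lower (against 37.0%). Among 8 genes that cleave SREBP precursors or act in sterol-regulated protein degradation, 0 were called by edgeR, though their log2 fold changes were all negative (-0.50 to -0.12) and inside the log2 limit. Of these 8, 7 had an unadjusted p under 0.05, and DESeq2 and limma-voom also called 0. Cyb5r3 and Cyb5b, the reductase and a cytochrome b5 that pass electrons to redox enzymes, had log2 fold changes of -1.31 (FDR 3.29e-09) and -1.26 (FDR 5.23e-10). Sec14l2, a lipid-binding protein reported to stimulate squalene epoxidation, had one of -0.96 (FDR 3.02e-09).

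Both related genes called higher belong to the group of 11 lysosomal and cytosolic sterol transport genes (18.2% of the group, against 19.2% of all tested genes). In this group 3 were called lower (27.3%, against 19.1%), namely Scp2, Gramd1c and Osbp, with log2 fold changes of -0.91, -0.83 and -0.52. These 3 were added by name after their values were seen. Gramd1b, which moves plasma membrane cholesterol to the endoplasmic reticulum, stood at 2.52 to 6.05 CPM in control and 7.38 to 14.6 CPM in MCD livers, without overlap (log2 fold change 1.36, FDR 1.06e-09). Npc2, the lysosomal cholesterol carrier, stood at 73.1 to 150 CPM and 154 to 240 CPM, also without overlap (log2 fold change 0.81, FDR 5.09e-07). The LXR genes Nr1h2 and Nr1h3 were not called, at log2 fold changes of -0.05 and -0.27.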

How the data were processed

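Poly(A) RNA of whole liver, extracted with Trizol, was sequenced in 12 control and 12 MCD libraries. The authors deposited 1 table of unnormalized read counts, with Ensembl genes in rows and libraries in columns. The submitters' processing notes name bcl2fastq, STAR 2.7.3a and mm10. The counting program, its annotation and its strand setting are not given for the mouse libraries in the sources used here. Of 56205 gene rows, 28652 were 0 in every library, and 0 columns were left unused. Groups come from the diet labels.

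Symbols came from GENCODE mouse release 21 (51745 rows named), as did exon overlaps and transcript lengths (longest transcript). Counts were fitted in R 4.3.3 with edgeR 4.0.16 (filterByExpr by diet, TMM, glmQLFit, glmQLFTest) over all 24 libraries without covariates. The threshold, an FDR of at most 0.01 and a log2 fold change beyond 0.5 either way, follows the study's human liver analysis, whose sex covariate could not be applied because no label gives a library's sex. Log2 CPM used a prior count of 2. Within-library differences were compared with two-sided permutation tests of 100000 resamples (scipy 1.17.1, numpy 2.4.6, Python 3.11.15), and figures were drawn with matplotlib 3.10.9. The fits were tested on simulated counts. The biological coefficient of variation was 26.8%. Within a diet the most alike pair of libraries had a chi-square of 11.7 per degree of freedom, where counting noise alone gives about 1, so each library was counted once. A count of 3 was the floor of detection (0.109 to 0.227 CPM per library), which every cholesterol gene exceeded in every library. It covers counting error only.

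The genes, the lists of related genes and markers, and the tests were chosen with earlier results of these data known. All 33 genes are named, and of the related genes the 3 with the largest rise and the 3 with the largest fall among those called (only 2 rose). Scp2, Gramd1c and Osbp, which were called, and Nr1h2 and Nr1h3, which were not, are named besides. The remaining related gene called lower was Pdss2 (log2 fold change -0.53, edgeR FDR 7.55e-06). One related gene, Faxdc2, was not matched to a row. Promoters came from RefSeq (GRCm38.p6). Alternatives were relative log expression, upper-quartile and total-count scaling, testing without a low-count filter or with a minimum of 10 counts per library, DESeq2 1.42.0, limma-voom (limma 3.58.1), the replicate number as a block, a numeric score of sex-linked expression as covariate, a log2 limit of 1, an FDR of 0.05 with any fold, leaving out each library and, for the within-library differences, a prior count of 0.5 and log2 raw counts plus 1.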

Additional observations from a re-analysis of the deposited data

How the results depend on the processing

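Leaving out each library gave 20 to 25 cholesterol genes lower and 2 higher (23 and 2 without control library 12). The other scalings, filters and tools gave 19 to 24 lower and 2 higher except total counts alone, which gave 14 lower and 3 higher (against 6.01% and 32.2% of all tested genes). The sex-linked score as covariate gave 25 and 2 (against 2707 and 2778 of the 14109 tested genes). An FDR of 0.05 with any fold also gave 25 and 2 (against 37.0% and 26.5%). A log2 limit of 1 gave 12 lower and 1 higher (against 4.86% and 13.2%). Of the 36 related genes tested, total counts alone called 6 higher and 4 lower (against 32.2% and 6.01% of all tested genes). An FDR of 0.05 without a fold limit called 5 and 22 (against 26.5% and 37.0%). A log2 limit of 1 called 1 and 2 of them (against 13.2% and 4.86%). Upper-quartile factors and no low-count filter moved the median of all genes by 0.15 and 0.12 (log2). The log2 fold change of Mvk turned to 0.095 with upper-quartile factors, 0.34 with total counts, 0.027 with at least 10 counts per library and 0.043 with limma-voom, and ranged from -0.13 to 0.12 when 1 library was left out. That of Ggps1 turned to 0.05 with upper-quartile factors and 0.26 with total counts, and that of Mylip to 0.10 with total counts. Leaving out 1 library gave 0.48 to 0.68 for Insig2 minus Insig1 and 0.21 to 0.42 for Abca1 minus Abcg8. Of 363 single-gene values under the other settings 43 lost the call, 3 gained it and 8 turned sign, and of 792 with 1 library left out 53, 1 and 3 did. The cause was not tested.

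The replicate numbers are shared by the diets, but same-number libraries deviated together (r above 0.1) in 8 of 12 pairs rather than all (r -0.28 to 0.35, median 0.23, against -0.06 for other pairs), and 3 of 24 libraries correlated best with their own number, so the numbers were not taken as pairs. With a replicate block 21 cholesterol genes were lower and 2 higher, Mvk was at 0.03, and the calls of Hmgcs1, Idi1 and Sqle were lost (edgeR FDR 0.051, 0.0345 and 0.0539).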
